A study of Mus musculus with 50 samples.

Results

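The MHC class I pathway was followed through 10 genes, chosen by symbol out of the 53700 genes counted in each library: the heavy chains H2-K1, H2-D1, H2-Q4, H2-Q6, H2-Q7, H2-T23 and H2-M3, the light chain B2m, and the peptide transporter subunits Tap1 and Tap2. All 10 symbols were found once, and all 10 passed the filter on low counts, so every gene entered every test. Microglia were sorted as CD45int CD11b+ cells from the hippocampus of 50 male C57BL/6J mice, with 1 poly-A RNA library per mouse. Litters of the early-life stress (ELS) groups were kept with limited bedding and nesting material from P2 to P9, and control (CTR) litters had standard cages. At P9, 12 CTR and 13 ELS mice (P9-CTR and P9-ELS) were killed without an injection. At P200, mice were injected with PBS or with 1 mg/kg LPS, a bacterial cell wall component, and killed 3 h later: 7 CTR mice got PBS (P200-CTR-PBS) and 7 got LPS (P200-CTR-LPS), while 6 ELS mice got PBS (P200-ELS-PBS) and 5 got LPS (P200-ELS-LPS). Myelin was removed with Percoll from adult but not from P9 brains, and only adults were injected, so age, myelin removal and injection cannot be told apart. The labels number the mice in 2 parts, the first of which was read as a nest although the labels do not define it, and the PBS and LPS mice of an early-life condition shared 5 such numbers.

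MHC class I molecules carry short peptides from inside the cell to its surface, where CD8 T cells and natural killer cells read them. The heavy chain folds with beta-2-microglobulin, the product of B2m, and is loaded in the endoplasmic reticulum with peptides that the proteasome cuts and the TAP transporter, a dimer of the Tap1 and Tap2 products, pumps in. H2-K1 and H2-D1 encode the classical molecules of this strain, and the H2-Q, H2-T and H2-M genes encode non-classical ones. Transcription of these genes is known to respond to NF-κB, to interferon regulatory factors and to the transactivator Nlrc5, and resting microglia are known for low surface class I that rises in inflammation.

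The sequence before the gene starts was searched for short motifs of these factors. RefSeq promoter sequences (250 bases before to 50 bases after the start, GRCm38.p6) were matched for 9 of the 10 genes, all but Tap2, and each was placed in GRCm39 by exact match. The letters GGGNNTTNC, an NF-κB type motif searched on both strands, occurred in 6 of these 9 genes (H2-K1, H2-D1, H2-Q4, H2-Q6, H2-Q7 and B2m) and in 4988 of all 32851 promoters. The letters TTTCACTTC, the core of the interferon element next to it in class I promoters, occurred in 6 of the 9 (the same 5 heavy chains and H2-M3) and in 0.505% of all promoters, and all motif letters were settled with these windows known. The windows below are printed to show how alike the classical and Q region heavy chains are in this stretch. Capitals mark the letters of either motif, and B2m holds its NF-κB type letters on the opposite strand.
H2-K1: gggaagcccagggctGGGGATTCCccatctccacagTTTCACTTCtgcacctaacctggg
H2-D1: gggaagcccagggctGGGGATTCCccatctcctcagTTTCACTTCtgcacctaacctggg
H2-Q4: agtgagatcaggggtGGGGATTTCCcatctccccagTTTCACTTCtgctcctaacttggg
H2-Q6: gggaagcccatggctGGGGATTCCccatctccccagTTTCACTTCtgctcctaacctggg
H2-Q7: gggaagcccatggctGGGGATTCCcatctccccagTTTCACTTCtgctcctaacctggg
H2-M3: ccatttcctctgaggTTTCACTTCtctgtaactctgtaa
B2m: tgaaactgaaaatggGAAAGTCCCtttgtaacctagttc

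In GRCm39 these windows lie at chr17:34219388-34219447 on the minus strand for H2-K1, and on the plus strand at chr17:35481884-35481943 for H2-D1, chr17:35598404-35598463 for H2-Q4, chr17:35643638-35643697 for H2-Q6, chr17:35657983-35658041 for H2-Q7, chr17:37581009-37581047 for H2-M3 and chr2:121978028-121978066 for B2m. The H2-K1 and H2-D1 windows differed at 1 of 60 bases, and H2-K1 and H2-Q6 at 3 of 60. The H2-Q4 window was less alike, differing from H2-K1 and from H2-D1 at 10 of 60 bases and from H2-Q6 at 9. The B2m and H2-D1 windows lie inside the GENCODE gene spans, which begin before the RefSeq starts. The full promoter sequences of H2-Q6 and of H2-Q7 each matched a further place letter for letter, at chr17:35737466-35737765 and chr17:35751812-35752111. Neither motif was found in the windows of H2-T23 and Tap1. Their promoter sequences, chr17:36343544-36343843 (minus strand) and chr17:34406280-34406579 (plus strand), also lie inside the GENCODE gene spans. The sequence before those earlier GENCODE starts was not searched. H2-T23 held the letters GAAANNGAA (8.56% of all promoters) on the opposite strand, as B2m did on its own. The Tap1 window overlapped that of Psmb9, an immunoproteasome gene read in the opposite direction, by 275 bases, and it held TGACG and CCAAT letters, which are common (20.8% and 37.4% of promoters). A match of letters describes the window and says nothing of binding.

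The genes lie in the MHC on chromosome 17, except B2m on chromosome 2 (chr2:121977957-121983594). From the K end, they are H2-K1 (chr17:34214987-34219321), Tap1 (chr17:34405996-34416199), Tap2 (chr17:34422501-34435829), H2-D1 (chr17:35481691-35486475), H2-Q4 (chr17:35598586-35604274), H2-Q6 (chr17:35643777-35655332), H2-Q7 (chr17:35658131-35662749), H2-T23 (chr17:36340229-36345571) and H2-M3 (chr17:37581106-37585384). The authors counted unique exonic reads, so reads that fit several near-identical heavy chains were not counted, and the split of reads among H2-Q6, H2-Q7 and their neighbours is uncertain. On the opposite strand, B2m lies wholly within Patl2 and H2-T23 within the lncRNA A930015D03Rik, both with low counts (806 for Patl2 over all 50 mice against 2752630 for B2m). H2-Q4 shares 695 bases with the lncRNA Gm11131, which had more counts than H2-Q4 itself (1177 against 894). Tap1 shares 743 bases with Psmb9, and Tap2 shares 1923 bases with the lncRNA Gm20496 and 3148 with Gm15821, which had 118214 and 50415 counts against 157646 for Tap2. The strand setting of the counting is not given in the sources used here, so reads of these partners cannot be told apart.

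Total counts per mouse ran from 5152838 to 42231258. A count above 0 was found for fewer than 16000 genes in 3 mice, P9-ELS mice 2 and 3 of nest 19 and P200-CTR-PBS mouse 1 of nest 1, and for 16485 to 21100 genes in the other mice. Levels are given as CPM, counts scaled to library size after TMM normalization. The summed level of 10 microglia markers was between 39286 and 91084 CPM in every mouse, and that of 7 T and NK cell markers was at most 0.407 CPM. In bulk RNA, fewer cells of a type and less RNA per cell cannot be told apart.

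Compared per length of merged exons, B2m was the highest of the 10 genes in every group, followed by H2-D1 and H2-K1. In P200-CTR-PBS mice the level per kilobase was 1185 ± 117 CPM (SD, n = 7) for B2m, 238 ± 35.8 for H2-D1 and 83.2 ± 17.4 for H2-K1, and the ranges of these neighbours did not overlap. Tap2 (39.2 ± 5.42 CPM per kilobase) and H2-M3 (37.5 ± 11.5), which encodes a molecule that presents formylated peptides, overlapped, and Tap2 was the higher in 4 of 7 mice. H2-T23, the gene of Qa-1, was below H2-M3 in all 7 mice, and Tap1 followed at 6.77 ± 2.85 CPM per kilobase. H2-Q4, H2-Q6 and H2-Q7 were at 0.0519 to 0.0724 CPM per kilobase on average and overlapped each other. The order of the lower genes moved between groups: Tap1 exceeded H2-T23 per length in all 12 P9-CTR mice and in 12 of 13 P9-ELS mice, and lay below it in every PBS-injected adult.

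**Figure D1:**
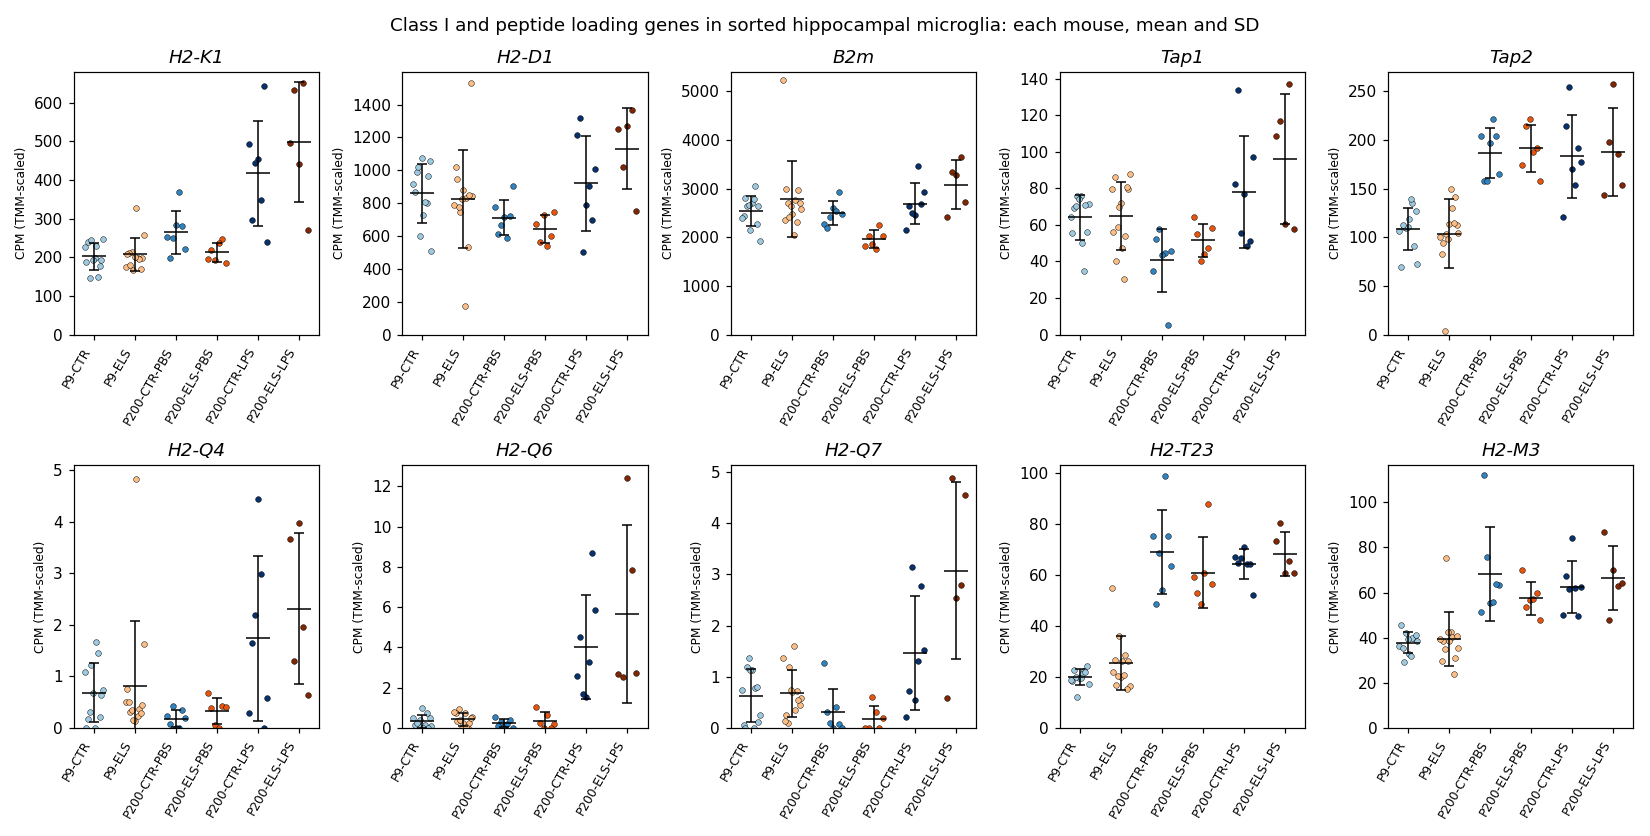
CPM of the 10 genes (y axis, linear from 0, a scale per panel) in each mouse of the 6 groups (x axis); points are mice, and bars give the mean and SD. H2-Q6 separates all LPS-injected mice from the PBS-injected mice, H2-T23 and Tap2 are higher in PBS-injected adults than in P9 mice except for H2-T23 in 1 P9-ELS mouse, and single mice stand far from their group, such as the P9-ELS mouse with Tap2 at 3.39 CPM.

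The comparison of LPS with PBS asked how the adult class I pathway responded within 3 h. In CTR mice H2-K1, H2-Q4, H2-Q6 and Tap1 rose, and in ELS mice H2-K1, H2-D1, H2-Q6, H2-Q7, B2m and Tap1 rose. These are 4 and 6 of 10 genes, where 8.73% of the 16696 genes tested rose in CTR mice and 7.4% in ELS mice (adjusted p under 0.05). H2-Q6 is counted among them although it passed the filter on low counts only through LPS-injected mice. With the nest number as a replicate block, fitted to the P200 mice, 2 of 10 genes were called in CTR mice, H2-Q6 and Tap1. In ELS mice 5 of 10 were called, H2-Q6 and H2-Q7 among them. H2-Q4, H2-Q6 and H2-Q7 passed the filter of that fit only through LPS-injected mice, so their calls in it are no support for a response. Their highest values in PBS-injected adults were 0.671, 1.05 and 1.27 CPM. In that fit 1365 of the 14486 genes tested rose in CTR mice and 1237 in ELS mice. Without the block, none of the 10 genes fell, where 6.2% and 4.94% of all genes tested fell. The median log2 fold change of the 10 genes was 0.51 in CTR and 0.86 in ELS mice, and that of all genes tested 0.0047 and -0.04.

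H2-K1, a classical heavy chain, was at 197 CPM in the lowest, 252 in the median and 369 in the highest P200-CTR-PBS mouse, and at 238, 443 and 643 CPM in P200-CTR-LPS mice. The CTR groups overlapped, with 4 of 7 LPS mice above every PBS mouse, and the log2 fold change was 0.65 (SE 0.17, adjusted p = 0.0049). With the replicate block it was 0.47 and was not called (adjusted p = 0.091). In P200-ELS-PBS mice H2-K1 ran from 185 over a median of 207 to 247 CPM, and the 5 P200-ELS-LPS mice were at 271, 443, 495, 633 and 652 CPM. Here the groups did not overlap, and H2-K1 rose 2.34-fold (log2 fold change 1.23, SE 0.19, adjusted p = 3.4e-06).

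H2-D1, the other classical heavy chain, ran from 588 over a median of 713 to 904 CPM in P200-CTR-PBS and from 503 over 905 to 1321 CPM in P200-CTR-LPS mice, with a log2 fold change of 0.37 (SE 0.22, adjusted p = 0.29). In P200-ELS-PBS mice it ran from 538 over 636 to 747 CPM, and the 5 P200-ELS-LPS mice were at 751, 1019, 1249, 1270.1 and 1365 CPM. All ELS mice with LPS were thus above all ELS mice with PBS, the lowest by a narrow margin, and the log2 fold change was 0.82 (SE 0.25, adjusted p = 0.021). The call was lost without P200-ELS-LPS mouse 3 of nest 17 (adjusted p = 0.062) or mouse 1 of nest 20 (adjusted p = 0.052). Without the mice with few detected genes the CTR difference was 0.44 (adjusted p = 0.0499).

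B2m, the light chain that every class I heavy chain needs, ran from 2187 over 2489 to 2939.9 CPM in P200-CTR-PBS and from 2152 over 2653 to 3469 CPM in P200-CTR-LPS mice, which overlapped, with 1 of 7 LPS mice above every PBS mouse (log2 fold change 0.11, SE 0.13, adjusted p = 0.66). In P200-ELS-PBS mice it ran from 1760.0 over 1946 to 2260.4 CPM, and the 5 P200-ELS-LPS mice were at 2414, 2724, 3292, 3340.3 and 3660.1 CPM. The ELS groups were separate, and B2m rose 1.57-fold (log2 fold change 0.65, SE 0.15, adjusted p = 0.001). It was higher with LPS in 5 of 5 ELS nests and in 3 of 5 CTR nests.

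The Q region genes H2-Q6, H2-Q7 and H2-Q4 had the largest fold changes at the lowest levels. H2-Q6 ran from 0 over 0.199 to 0.567 CPM in P200-CTR-PBS and from 1.53 over 3.29 to 8.67 CPM in P200-CTR-LPS mice, so that all 7 LPS mice were above all PBS mice. Its log2 fold change was 4.03 (SE 0.86, adjusted p = 0.00043). In P200-ELS-PBS mice H2-Q6 ran from 0 over 0.236 to 1.05 CPM and the 5 P200-ELS-LPS mice were at 2.53, 2.66, 2.75, 7.85 and 12.4 CPM, also without overlap (log2 fold change 3.93, SE 0.93, adjusted p = 0.002). H2-Q6 reached 1 CPM in 2 of 38 mice without LPS and in 12 of 12 with it, so it entered the tests only through the mice in which it is high, and its call and its separate groups are no support for a response of the 10 genes. Of the other genes, none had separate LPS and PBS groups in CTR mice, where 4.92% of all genes tested were higher without overlap, and H2-K1, H2-D1 and B2m did in ELS mice, where 5.65% were.

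H2-Q7 ran from 0 over 0.102 to 1.27 CPM in P200-CTR-PBS and from 0.215 over 1.31 to 3.15 CPM in P200-CTR-LPS mice (log2 fold change 2.197, SE 0.90, adjusted p = 0.093). The highest PBS value came from mouse 1 of nest 5, without which the adjusted p was 0.019. The 5 P200-ELS-LPS mice were at 0.585, 2.53, 2.8, 4.55 and 4.89 CPM, against 0 over 0.0958 to 0.597 CPM in P200-ELS-PBS mice, and the log2 fold change was 4.04 (SE 1.07, adjusted p = 0.0065). For H2-Q6 plus H2-Q7, their counts summed, the log2 fold change was 3.29 in CTR mice (SE 0.65, adjusted p = 0.00017) and 3.98 in ELS mice (SE 0.74, adjusted p = 7.1e-05).

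H2-Q4 ran from 0 over 0.199 to 0.428 CPM in P200-CTR-PBS and from 0 over 1.66 to 4.45 CPM in P200-CTR-LPS mice, where 5 of 7 LPS mice were above all PBS mice (log2 fold change 3.23, SE 0.96, adjusted p = 0.015). With the replicate block the CTR value was 2.11 and was not called (adjusted p = 0.40). In ELS mice with LPS it was at 0.644, 1.3, 1.95, 3.68 and 3.98 CPM, against 0 over 0.398 to 0.671 CPM with PBS (log2 fold change 2.80, SE 1.03, adjusted p = 0.064). The counts behind these values were at most 172 per mouse for H2-Q6, 114 for H2-Q4 and 89 for H2-Q7, so their fold changes are imprecise.

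Of the TAP subunits, Tap1 was called in both conditions and Tap2 in neither. Tap1 ran from 5.39 over 44.8 to 57.8 CPM in P200-CTR-PBS and from 48.6 over 77.1 to 134 CPM in P200-CTR-LPS mice (log2 fold change 0.94, SE 0.27, adjusted p = 0.012). In P200-ELS-PBS mice it ran from 40.3 over 51.08 to 64.2 CPM, and the 5 P200-ELS-LPS mice were at 57.7, 60.4, 109, 117 and 137 CPM (log2 fold change 0.90, SE 0.30, adjusted p = 0.041). The groups overlapped in both conditions. The Tap1 call was lost in CTR mice when only the groups compared were fitted (adjusted p = 0.088) or without P200-CTR-LPS mouse 2 of nest 8 (0.058), and in ELS mice with the replicate block (log2 fold change 0.85, adjusted p = 0.12) and in 8 of 11 fits that left out 1 mouse (adjusted p up to 0.15). Tap2 was at 158 over 197 to 221 CPM in P200-CTR-PBS and 121 over 177 to 254 CPM in P200-CTR-LPS mice, with log2 fold changes of -0.03 in CTR (SE 0.28, adjusted p = 0.98) and -0.03 in ELS mice (SE 0.32, adjusted p = 0.98).

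H2-T23 and H2-M3 did not pass the test after LPS. H2-T23 had log2 fold changes of -0.10 (SE 0.19, adjusted p = 0.80) in CTR and 0.16 (SE 0.21, adjusted p = 0.70) in ELS mice. H2-M3 had -0.13 (SE 0.17, adjusted p = 0.70) and 0.21 (SE 0.19, adjusted p = 0.55).

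**Figure D2:**
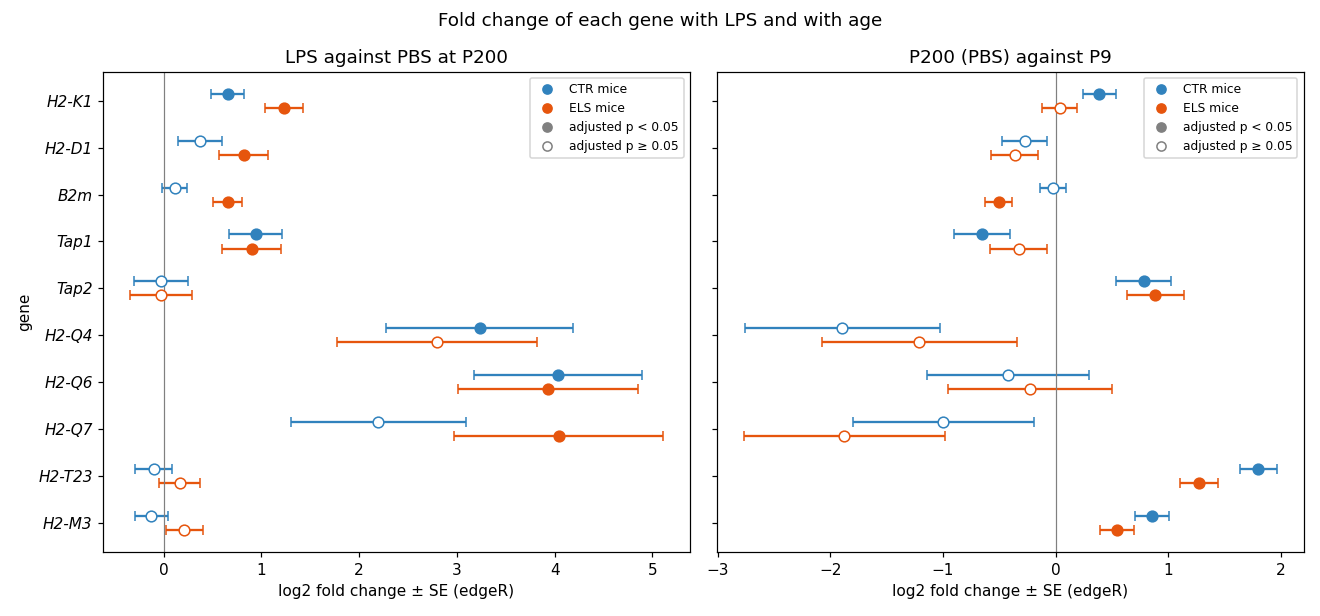
Log2 fold change and SE (x axis) of each gene (y axis) with LPS at P200 (left) and with age, P200 with PBS against P9 (right), in CTR (blue) and ELS (orange) mice; filled points have an adjusted p under 0.05. The Q region genes have the largest values and the widest errors with LPS, and H2-T23, H2-M3 and Tap2 lie above 0 with age but near 0 with LPS.

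The H2-K1 to H2-D1 and the Tap1 to Tap2 ratio of counts within each mouse, need no scaling between libraries. Both were chosen after the values had been seen and are given as descriptions, with no test. The H2-K1 to H2-D1 count ratio was 0.371 ± 0.029 (SD, n = 7) in P200-CTR-PBS and 0.456 ± 0.0557 (n = 7) in P200-CTR-LPS mice. It was 0.333 ± 0.0278 (n = 6) in P200-ELS-PBS and 0.434 ± 0.0568 (n = 5) in P200-ELS-LPS mice. The ranges overlapped in both conditions.

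The Tap1 to Tap2 count ratio was 0.213 ± 0.084 (n = 7) in P200-CTR-PBS and 0.421 ± 0.0964 (n = 7) in P200-CTR-LPS mice. It was 0.269 ± 0.0256 (n = 6) in P200-ELS-PBS and 0.51 ± 0.151 (n = 5) in P200-ELS-LPS mice. In neither condition did the ranges of LPS and PBS mice overlap. Without P200-CTR-PBS mouse 1 of nest 1, whose ratio was 0.0341, the CTR difference was 0.76 in place of 1.17 on the log2 scale. In P9-CTR mice the ratio was 0.603 ± 0.155 (n = 12), and all were above every P200-CTR-PBS mouse.

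**Figure D3:**
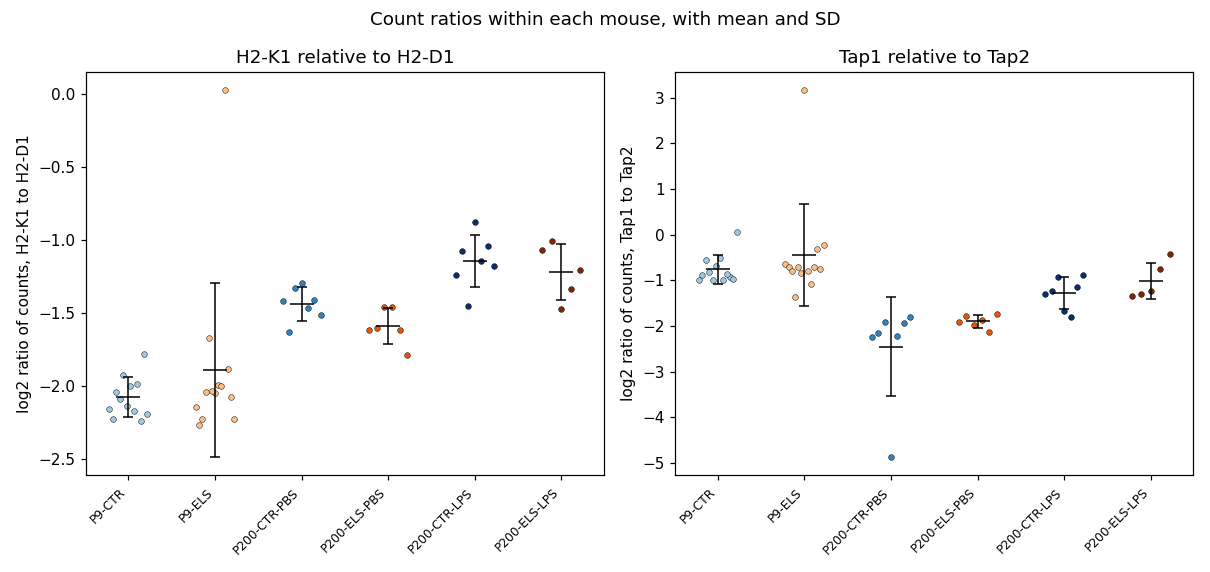
Log2 ratio of counts within each mouse (y axis), H2-K1 to H2-D1 (left) and Tap1 to Tap2 (right), in the 6 groups (x axis); points are mice, and bars give the mean and SD. The mean of both ratios is higher with LPS than with PBS, and the P9-ELS mouse at the top of each panel is mouse 2 of nest 19, 1 of the 3 with few detected genes.

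Genes that act with these 10 were counted by lists. Of 12 genes for the transcription of class I genes, 8 rose with LPS in CTR mice and 5 in ELS mice, against 8.73% and 7.4% of all genes tested, and none fell. Nlrc5, the class I transactivator, went from 1.89 ± 1.2 to 15.3 ± 5.51 CPM in CTR mice (log2 fold change 3.01, SE 0.54, adjusted p = 3.6e-05) and from 3.22 ± 1.39 to 12.3 ± 1.19 CPM in ELS mice (1.93, SE 0.58, adjusted p = 0.019). Irf1, an interferon regulatory factor, rose by log2 fold changes of 2.51 (SE 0.24) and 2.82 (SE 0.27), and the NF-Y subunit genes Nfyb by 1.80 (SE 0.23) and 1.85 (SE 0.25) and Nfya by 1.21 (SE 0.21) and 1.04 (SE 0.23).

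Among 6 genes of the peptide loading complex and its helpers, none was called in CTR mice and 1 rose in ELS mice, Tapbpl, a tapasin-related editor (log2 fold change 0.46, SE 0.15, adjusted p = 0.037). Tapbp, the gene of tapasin, had -0.04 (SE 0.16) and 0.11 (SE 0.18). Of 5 immunoproteasome and PA28 genes, Psmb9, the neighbour of Tap1, fell in CTR mice (log2 fold change -0.43, SE 0.14, adjusted p = 0.027), and Psme1, a PA28 subunit gene, rose in ELS mice (0.56, SE 0.16, adjusted p = 0.011). Psmb8 had -0.27 (SE 0.18, adjusted p = 0.37) and 0.23 (SE 0.20, adjusted p = 0.54). None of the 3 constitutive catalytic subunits and none of the 4 tested class I-like genes was called with LPS.

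Of 14 other class I heavy chains, 12 were in the files and 4 passed the filter on low counts. H2-Q5 rose in ELS mice (adjusted p = 1.3e-05): it had no count in 5 of 6 P200-ELS-PBS mice and 1 count in the other, and ran from 0.556 to 7.8 CPM in P200-ELS-LPS mice. In P200-CTR-LPS mice it ran from 0 to 6.02 CPM. It was also the only gene of these pathway lists called between ELS and CTR mice, lower in ELS mice with PBS (adjusted p = 0.047), where the 7 P200-CTR-PBS mice ran from 0 over a median of 0.355 to 2.8 CPM. That call rests on very low counts. In limma-voom with a random nest effect, and with only the groups compared fitted, 0 genes of any kind were called in this comparison. H2-T22 and H2-T24, other T region genes, were not called with LPS in either condition.

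**Figure D4:**
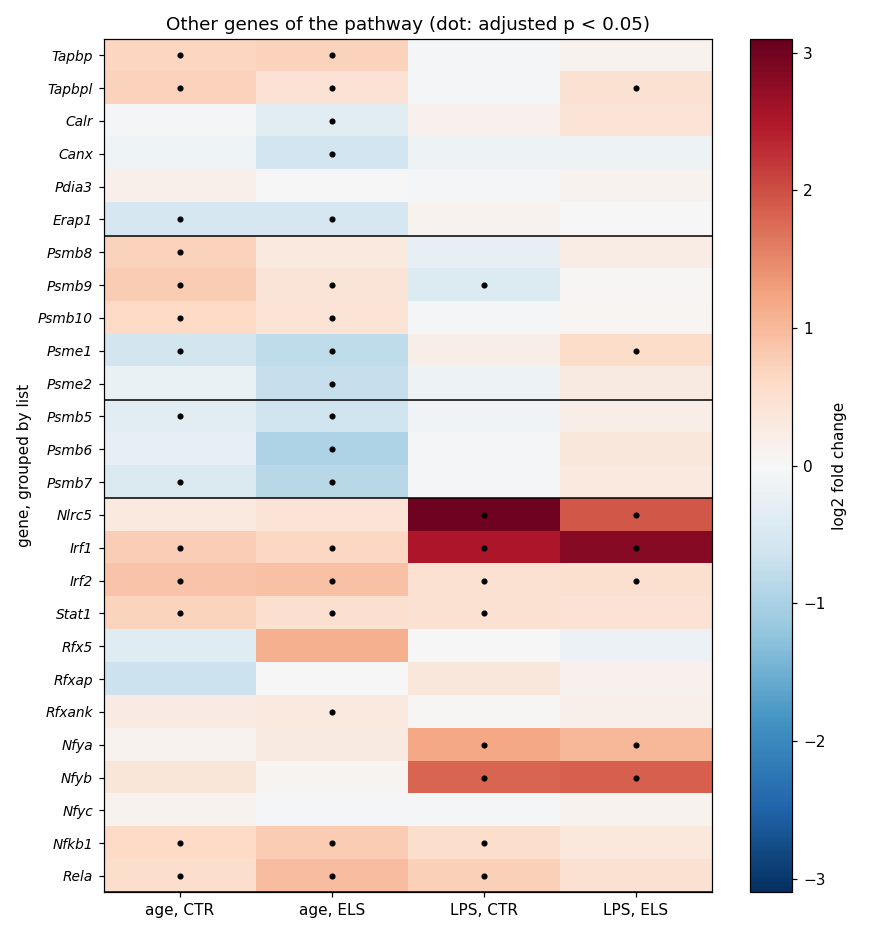
Log2 fold change (colour) of 26 other genes of the pathway (y axis, separated by list: peptide loading, immunoproteasome and PA28, constitutive subunits, transcription) with age and with LPS in CTR and ELS mice (x axis); a dot marks an adjusted p under 0.05. With LPS, Irf1, Nlrc5, Nfyb and Nfya of the transcription list are above 1 in both conditions.

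Markers of other cells were measured beside the LPS values, and their part in them was not tested. The summed level of 7 endothelial markers ran from 39.3 to 70.5 CPM in P200-CTR-PBS and from 58.4 to 92.6 CPM in P200-CTR-LPS mice, where Kdr rose (log2 fold change 2.28, adjusted p = 0.013), and from 30.2 to 71.9 and 44.5 to 99.4 CPM in the ELS groups. That of 5 astrocyte markers ran from 299 to 503 CPM and from 481 to 613 CPM in CTR mice, and from 314 to 453 and 418 to 584 CPM in ELS mice. Slc1a3 carried nearly all of the adult sum and rose with LPS in CTR mice, from a mean of 356 to 549.6 CPM (log2 fold change 0.63, adjusted p = 0.0049), and Gfap rose in ELS mice from 0.108 to 1.66 CPM (log2 fold change 3.92, SE 0.86, adjusted p = 0.00079). The lists did not move as a whole. Of the 5 astrocyte markers, 2 had a log2 fold change above 0 in CTR mice (median -0.46) and 3 in ELS mice (median 0.41). Of the 5 endothelial markers tested, 3 were above 0 in CTR mice (median 0.013) and 1 in ELS mice (median -0.20). Of 8 monocyte and neutrophil markers the sum was at most 14.0 CPM in any mouse, with 3 to 5 of them at 0 in every mouse of 5 of the 6 groups. Of the 4 B cell markers, Cd79b carried most of the sum (at most 428 CPM in any mouse). Sall1, a microglial identity gene, fell with LPS from 302 ± 58.4 to 91.1 ± 14.7 CPM in CTR mice and from 325 ± 39.4 to 80.5 ± 30.4 CPM in ELS mice. P2ry12 fell as well (log2 fold changes -0.62, adjusted p = 0.0044, and -0.58, adjusted p = 0.027), as did Gpr34 (-0.75, adjusted p = 0.0069, and -0.76, adjusted p = 0.020), so that 3 of the 10 microglia markers fell in each condition and 0 rose.

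The comparison of ages asked how the pathway differed between pup and adult microglia. In CTR mice H2-T23, H2-M3, Tap2 and H2-K1 were higher and Tap1 lower at P200 than at P9, and in ELS mice H2-T23, H2-M3 and Tap2 were higher and B2m lower. Thus 5 and 4 of 10 genes changed, shares near the 44.1% and 42.2% of all genes tested that changed with age. The median log2 fold change of the 10 genes was -0.15 in CTR and -0.28 in ELS mice. The 2 comparisons share no mice with each other, but their adults are the PBS-injected mice of the LPS comparisons, so the age and LPS values are not independent.

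H2-T23, whose product Qa-1 is the ligand of natural killer cell receptors of the NKG2 family, ran from 12.1 over 19.9 to 24.2 CPM in P9-CTR and from 48.8 over 68.7 to 98.9 CPM in P200-CTR-PBS mice. All 7 adults were above all 12 pups, and the log2 fold change was 1.80 (SE 0.16, adjusted p = 4.8e-13), a 3.48-fold difference. In ELS mice it ran from 15.4 over 21.8 to 55 CPM at P9 and from 48.5 over 57.9 to 88 CPM at P200 (log2 fold change 1.27, SE 0.17, adjusted p = 1.6e-08), and the highest pup was mouse 3 of nest 19, with few detected genes.

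H2-M3 ran from 29.3 over 39.1 to 45.7 CPM in P9-CTR and from 51.23 over 63.4 to 112 CPM in P200-CTR-PBS mice, again without overlap (log2 fold change 0.85, SE 0.15, adjusted p = 4.6e-06). In ELS mice it was at 23.7 over 38.6 to 75.2 CPM at P9 and 47.7 over 57 to 69.8 CPM at P200 (0.54, SE 0.15, adjusted p = 0.0033). Tap2 ran from 69.8 over 111 to 139 CPM in P9-CTR and from 158 over 197 to 221 CPM in P200-CTR-PBS mice (0.78, SE 0.24, adjusted p = 0.0079), and from 3.39 over 105 to 149 and 158 over 189 to 222 CPM in ELS mice (0.88, SE 0.25, adjusted p = 0.0035). It was separate between ages in both conditions, and with the groups compared fitted alone the ELS value missed the threshold (adjusted p = 0.054). The 3 genes H2-T23, H2-M3 and Tap2 were separate in CTR mice and 1, Tap2, in ELS mice, against 6.56% and 4.6% of all genes tested that were higher without overlap.

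Tap1 went the other way in CTR mice, from 34.9 over 69.7 to 75.8 CPM at P9 to 5.39 over 44.8 to 57.8 CPM at P200 (log2 fold change -0.66, SE 0.25, adjusted p = 0.026). The lowest adult was mouse 1 of nest 1, and without it the adjusted p was 0.062, while without all 3 mice with few detected genes it was 0.038. In ELS mice the difference was -0.33 (SE 0.25, adjusted p = 0.30). The log2 Tap1 to Tap2 count ratio had differences between the ages of -1.69 in CTR and -1.45 in ELS mice, given without a test, and the ages did not overlap. Without the mice with few detected genes they were -1.28 and -1.15.

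H2-K1 was at 146 over 196 to 247 CPM in P9-CTR and 197 over 252 to 369 CPM in P200-CTR-PBS mice (log2 fold change 0.39, SE 0.15, adjusted p = 0.031), a call that was lost without adult mouse 1 of nest 1 (adjusted p = 0.12) or mouse 1 (0.054) or 2 (0.056) of nest 5. In ELS mice its difference was 0.03 (SE 0.16). H2-D1 had differences of -0.28 (SE 0.20, adjusted p = 0.27) and -0.36 (SE 0.21, adjusted p = 0.16). The H2-K1 to H2-D1 count ratio was 0.238 ± 0.0235 in P9-CTR mice (n = 12), all below the P200-CTR-PBS mice. In ELS mice the log2 ratio differed by 0.30, and by 0.44 without the mice with few detected genes, among them P9-ELS mouse 2 of nest 19 with a ratio of 1.02, both given without a test.

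B2m did not pass the test for age in CTR mice (log2 fold change -0.03, SE 0.11, adjusted p = 0.88) and was lower at P200 in ELS mice (-0.51, SE 0.12, adjusted p = 0.00066). P9-ELS mice ran from 2049 over 2643 to 5229.5 CPM, and 5 of the 6 P200-ELS-PBS mice were below all of them. The highest pup was mouse 2 of nest 19, and without the mice with few detected genes the value was -0.41 (adjusted p = 0.00021). H2-Q4, H2-Q6 and H2-Q7 had differences between -1.90 and -0.23 with adjusted p from 0.070 to 0.83.

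The other genes of the pathway changed with age in both directions. Of the immunoproteasome and PA28 list, 3 of 5 were higher and 1 lower in CTR mice, with Psmb9 at 0.78 (SE 0.12), Psmb8 at 0.73 (SE 0.15), Psmb10 at 0.61 (SE 0.12) and Psme1 at -0.57 (SE 0.13) on the log2 scale. In ELS mice 2 were higher and 2 lower, and Psmb8 did not pass (0.30, SE 0.16, adjusted p = 0.14). The constitutive counterparts were lower, Psmb5 and Psmb7 in CTR mice (-0.32, SE 0.13, and -0.46, SE 0.12) and all 3 in ELS mice, where Psmb6 was at -0.96 (SE 0.25). Tapbp was higher in both conditions (0.67, SE 0.14, and 0.72, SE 0.14), as was Tapbpl (0.72, SE 0.12, and 0.44, SE 0.12), whereas Erap1, a peptide trimming enzyme, was lower (-0.51, SE 0.14, and -0.53, SE 0.15). Of the transcription list 5 genes in CTR and 6 in ELS mice were higher and none lower, and Nlrc5 was not among them (0.30, SE 0.46, and 0.43, SE 0.46). Irf1 had means of 28.2 CPM in P9-CTR and 47.5 CPM in P200-CTR-PBS mice, and 25.4 and 39.5 CPM in the ELS groups. Of all 16696 genes tested, 2911 were higher and 4445 lower with age in CTR mice, and 2863 and 4182 in ELS mice. Fcgrt, the neonatal Fc receptor gene, was lower by 1.77 (SE 0.11) and 1.76 (SE 0.12). H2-Q5, at very low counts, had a mean of 0.283 CPM in P9-ELS and 0.00862 CPM in P200-ELS-PBS mice. In CTR mice its mean was 0.337 CPM at P9 and 0.731 CPM at P200 with PBS.

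Border-associated macrophage markers moved with age in the same samples. Their summed level over 7 genes ran from 475 to 921 CPM at P9, nearly all of it Mrc1, and from 1.87 to 11.8 CPM in adults, while 6 neuron markers ran from 39.2 to 186 CPM at P9 and from 2.49 to 15.15 CPM in adults. In both conditions 4 of 5 astrocyte markers were lower in adults, with Gfap at a mean of 41.0 CPM in P9-CTR and 1.28 CPM in P200-CTR-PBS mice, and 1, Slc1a3, was higher. Cd79b, a B cell marker, was lower, at 149.8 against 45.8 CPM in CTR mice. Of the 10 microglia markers, 7 were higher and 1 lower in both conditions, with Tmem119 at log2 fold changes of 2.01 in CTR and 2.101 in ELS mice. The part of these cells in the age differences was not tested.

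The comparisons of ELS with CTR asked whether stress in the first week left a mark on the pathway. None of the 10 genes was called by edgeR at P9, at P200 with PBS or at P200 with LPS, where 0%, 0.168% and 0% of all genes tested were called in either direction. At an unadjusted p under 0.05 there was 1 of 10 at P9 (H2-T23), 1 of 10 with PBS (B2m) and 0 of 10 with LPS, against 914, 1622 and 798 of all 16696 genes. DESeq2, the edgeR likelihood-ratio test and limma-voom also called none of the 10 genes. The median log2 fold changes of the 10 genes were 0.08, -0.17 and 0.28.

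B2m with PBS was the nearest to a call. The 6 P200-ELS-PBS mice had a mean of 1963 ± 184 CPM and the 7 P200-CTR-PBS mice 2496 ± 246 CPM, and 5 of 6 ELS mice were below all CTR mice (log2 fold change -0.35, SE 0.13, p = 0.013, adjusted p = 0.31). With 1 mean log2 CPM per nest, all 5 ELS nests were below all 5 CTR nests, a difference of -0.39 (exact permutation p = 0.0079 without adjustment, the smallest that 5 against 5 nests allow, in 1 of 30 such tests). With LPS the sign was the other way, at 0.20 (SE 0.14, p = 0.17).

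H2-T23 was the nearest at P9, with 25.4 ± 10.6 CPM (n = 13) in P9-ELS and 19.9 ± 3.19 CPM (n = 12) in P9-CTR mice (log2 fold change 0.35, SE 0.14, p = 0.019, adjusted p = 0.90). Over nests the difference was 0.27 (exact permutation p = 0.016 without adjustment, the smallest that 4 against 5 nests allow). Without the mice with few detected genes the edgeR value was 0.25 (adjusted p = 0.91).

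The interactions asked whether the responses differed between ELS and CTR mice, and none of the 10 genes was called in either, where 0% of all genes tested were called for LPS and 0.0299% for age (980 and 1712 genes at an unadjusted p under 0.05). The LPS response of B2m was 0.54 larger on the log2 scale in ELS than in CTR mice (SE 0.19, p = 0.0075, adjusted p = 0.55), that of H2-K1 0.57 larger (SE 0.26, p = 0.030, adjusted p = 0.77) and that of H2-D1 0.45 larger (SE 0.33, adjusted p = 0.95). The 6 genes called in ELS and the 4 called in CTR mice are therefore not shown to mark a different response. For age, B2m differed by -0.48 (SE 0.17, p = 0.0055, adjusted p = 0.32) and H2-T23 by -0.53 (SE 0.24, p = 0.034, adjusted p = 0.45). Both interactions and the comparison of ELS with CTR under PBS use the same PBS-injected adults. The B2m values in them are therefore not separate signals.

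Within groups the 10 genes did not vary as 1 unit. After each group's mean was subtracted, the 45 pairs of genes had a median Pearson r of 0.18 in log2 CPM over the 50 mice (range -0.66 to 0.81, 32 pairs above 0). H2-K1 and H2-D1 had r = 0.70, which was 0.88 over the 47 mice with at least 16000 detected genes. The highest and the lowest pair, H2-D1 with Tap2 (0.81) and B2m with Tap2 (-0.66), were at 0.62 and -0.17 in those 47 mice. H2-Q6 and H2-M3 had the lowest r there, -0.40. All points share library depth and dissection, and these values are descriptions.

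The genes most like the mean of the 10 standardized genes were ranked among 8266 other genes with a mean log2 CPM of at least 3. Over the 50 mice they were Nfkbib (r = 0.92), an inhibitor of NF-κB, Slc15a3 (0.91), Litaf (0.90), Icam1 (0.89), an adhesion molecule, and Gm47079 (0.89). With group means subtracted they were Tnip1 (0.73), Nfkbib (0.72), Agpat3 (0.71), G3bp1 (0.71) and Slc15a3 (0.71), so that Nfkbib and Slc15a3 were in both sets.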

How the data were processed

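The authors demultiplexed with bcl2fastq 2.20, trimmed with cutadapt 2.10, aligned to GRCm39 with STAR and counted unique exonic reads per gene with HTSeq 0.11.0. The annotation release is not given in the sources used here. The deposited values are raw counts of reads per gene, 53700 genes in each of 50 mice, and 5152838 to 42231258 counts per mouse. No 2 mice of a group had identical counts.

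From these counts, edgeR 4.0.16 (R 4.3.3) fitted quasi-likelihood models with 6 group means over all mice after TMM scaling, for the 16696 genes that reached 1 CPM in over 2 mice. SE is the log2 fold change divided by the root of F, adjusted p is Benjamini-Hochberg over all genes tested, and changed, called, rose or fell means an adjusted p under 0.05. log2 CPM used a prior count of 2. Nest means were tested by permutation in scipy 1.17.1, and ratios of counts are descriptions. Exon lengths and positions came from GENCODE vM39 (52610 genes found), and promoters from RefSeq. In data simulated for LPS against PBS in CTR mice (16271 genes), 65 of 100 genes changed by 1 on the log2 scale and 99 of 100 changed by 2 were recovered. There were 9 false calls. The changed genes were drawn from those with a mean log2 CPM of at least 3. H2-Q4, H2-Q6 and H2-Q7 lie below that level, so these shares do not apply to them.

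The 10 genes, the pathway and marker lists and the tests were chosen with earlier results of these data known. All 10 genes are named throughout. Of other lists, up to 4 genes with the largest change and an adjusted p under 0.05 in a comparison are named, with Nlrc5, Irf1, Psmb8 and Tapbp. H2-T22, H2-T24 and the Tap1 and H2-K1 ratios were chosen after values were seen. Likeness is the Pearson r with the mean standardized log2 CPM of the 10 genes. Each mouse's label has a number of 2 parts: the first was read as its nest and the second as its number in it, which the labels do not define. Alternatives were the edgeR likelihood-ratio test, DESeq2 1.42.0, its size factors in edgeR, no filter, only the groups compared, limma-voom (limma 3.58.1) with a random nest effect, a block for nest number, leaving out mice with few detected genes and leaving out each mouse. That replicates of a group came from separate mice is taken from the labels.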

Additional observations from a re-analysis of the deposited data

Results flagged for a closer look

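In 4 of 40 sets of 1 gene in 1 group of adult mice (5 to 7 mice each), a single mouse lay far from the others by Dixon's criterion, which chance meets in about 1 in 20 sets. H2-Q7 was at 1.27 CPM in P200-CTR-PBS mouse 1 of nest 5 and from 0 to 0.407 CPM in the others. H2-T23 was at 88.0 CPM in P200-ELS-PBS mouse 1 of nest 2 and from 48.5 to 60.7 CPM in the others. In P200-CTR-LPS mice, H2-T23 was at 52.4 CPM in mouse 3 of nest 18 and from 64.4 to 71.0 CPM in the others. H2-M3 was at 112 CPM in P200-CTR-PBS mouse 1 of nest 1, which had few detected genes, and from 51.23 to 75.8 CPM in the others.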

How the results depend on the processing

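Of 19 called values among 90 (10 genes in 9 comparisons), 11 held under every alternative and 8 were lost under at least 1, of which 6 under an alternative other than leaving out 1 mouse. No called value changed sign, and 28 values called in neither fit did. With the replicate block (nest number), 2 genes in place of 4 changed with LPS in CTR mice: H2-K1 (0.47, adjusted p = 0.091) and H2-Q4 (2.11, adjusted p = 0.40) were lost. In ELS mice 5 in place of 6 changed under the block, Tap1 being lost (0.85, adjusted p = 0.12), and the interaction had 0. H2-Q4, H2-Q6 and H2-Q7 passed the filter of the block fit only through LPS-injected mice. Of the 14486 genes tested with the block, 1365 rose with LPS in CTR mice and 1237 in ELS mice. Of 15 pairs of a PBS and an LPS mouse from a nest, 4 had a correlation above 0.1. The median was 0.066, against -0.017 for pairs from different nests, and the correlation within nests in limma-voom was 0.078. So few pairs cannot decide whether mice of a nest number are alike. Leaving out 1 mouse at a time gave 3 to 5 changed genes with LPS in CTR mice, 4 to 6 in ELS mice, 3 to 6 with age in CTR and 4 to 5 in ELS mice, and 0 to 0 in the other comparisons. H2-K1 with age in CTR mice was also lost without a filter (adjusted p = 0.051) and without the mice with few detected genes (0.088), and Tap1 with LPS in ELS mice without a filter (0.056) and in limma-voom (0.066). H2-Q4 with LPS in ELS mice passed in DESeq2 (0.022), in limma-voom (0.022), in the likelihood-ratio test (0.027), with the groups compared alone (0.023) and without the mice with few detected genes (0.021). With the groups compared alone, H2-Q4 passed the filter on low counts only through LPS-injected mice, so that pass is no support. H2-Q7 with LPS in CTR mice passed in the likelihood-ratio test (0.045), DESeq2 (0.040) and limma-voom (0.018). With age, H2-D1 passed without the mice with few detected genes (CTR 0.049, ELS 0.045), H2-Q4 in CTR mice in DESeq2 (0.032), and H2-Q7 in ELS mice in DESeq2 (0.037) and limma-voom (0.016). The causes were not tested. Counts of at most 172 per mouse limit H2-Q4, H2-Q6 and H2-Q7.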
